A study of Sus scrofa with 80 samples.

Results

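The transcripts described here are those of interleukin 10 (IL10) and of the 2 chains of its receptor, IL10RA and IL10RB, in the blood of weaned pigs. Every probe set of the array whose only annotated gene symbol was 1 of these 3 was taken. Of 23999 probe sets tested, 2 met this rule, 1 for IL10 (gene ID 397106) and 1 for IL10RB (gene ID 396657), so that 2 of the 6765 genes with such a probe set are described. IL10RA was the only symbol of 0 probe sets and was not analysed here.

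IL-10 is a secreted cytokine that restrains inflammation. Monocytes and macrophages, regulatory and other T cells, B cells and NK cells can all make it. It binds IL10RA, the ligand-specific chain, which pairs with IL10RB, a chain shared with the receptors of IL-22, IL-26 and the lambda interferons. The receptor acts through the kinases JAK1 and TYK2 and the transcription factor STAT3, and in monocytes and macrophages the outcome is lower output of inflammatory cytokines.

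Blood was drawn from the anterior vena cava of pigs aged 35 days, and total RNA was hybridised to a porcine Affymetrix array. The labels give no breed, treatment or genotype, and the sex of the pigs was not used here. For each of 8 pairs of traits the study ranked pigs by a self-product of the 2 traits and put 5 extreme pigs from each end on arrays, giving 80 columns in 16 groups. The traits were CD4+ and CD8+ by flow cytometry, IFN-alpha and IL-10 by immunological kits, and weight at day 35, labelled W35. The pairs were CD4+ with W35, CD8+ with W35, IFN-alpha with W35, IL-10 with W35, CD4+ with IFN-alpha, CD4+ with IL-10, CD8+ with IFN-alpha and CD8+ with IL-10. A group labelled high had a high self-product. The formula of the self-product is not given in the sources used here, so a high group is not known to be high in either trait, and a pig's measured IL-10 was not used here.

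The same pigs recur across pairs, as the study states. Columns that correlated above 0.99 over all probe sets were taken as 1 pig, which left 29 distinct pigs. Of these, 21 were in at least 2 pairs and 13 were labelled low in one pair and high in another. Each pair was therefore tested on its own 10 columns, and the 8 comparisons are not independent of each other. The bacterial hybridisation controls put 11 pigs in a lower and 18 in a higher class by the difference between bioB and bioC, with nothing between -3.57 and -1.69 on the log2 scale. Markers of blood cells had a probe set for 6 of 7 T cell, 3 of 4 regulatory T cell, 1 of 5 B cell, 5 of 7 cytotoxic and NK cell, 5 of 7 monocyte, 5 of 6 neutrophil, 4 of 5 platelet and 4 of 6 erythroid genes. In whole blood, fewer cells of a type and less RNA per cell cannot be told apart.

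IL10 was higher in the high group of CD4+ with W35 and of CD8+ with W35, and lower in the high group of IL-10 with W35 and of CD4+ with IFN-alpha, each time by about 1 on the log2 scale, which is a factor of 2. In the other 4 pairs the difference was smaller than this. None of these differences passed the adjusted threshold of 0.05 (limma, Benjamini-Hochberg over all probe sets). By that rule 0 of the 2 member probe sets were called in each pair, and percent called over all probe sets was 0 in each pair as well. At an unadjusted p under 0.05 IL10 was among the probe sets in those 4 pairs, and IL10RB in 0 pairs. The share of all probe sets at that level was 8.93% in CD4+ with W35, 3.43% in CD8+ with W35, 3.19% in IL-10 with W35 and 3.87% in CD4+ with IFN-alpha. It was 4.24% in IFN-alpha with W35, 6.18% in CD4+ with IL-10, 1.98% in CD8+ with IFN-alpha and 2.53% in CD8+ with IL-10. Low and high arrays overlapped for both genes in every pair. The share of all probe sets without overlap was 1.64% in CD4+ with W35, 0.408% in CD8+ with W35, 0.638% in IFN-alpha with W35, 0.533% in IL-10 with W35, 0.504% in CD4+ with IFN-alpha, 1.12% in CD4+ with IL-10, 0.296% in CD8+ with IL-10 and 0.283% in CD8+ with IFN-alpha.

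In CD4+ with W35 the low arrays held IL10 at 6.24, 7.15, 7.32, 7.67 and 8.13 log2 units, and the high arrays at 7.80, 8.20, 8.39, 8.70 and 9.54. Of the 5 high arrays, 4 lay above every low array, and the lowest high array lay within the low range. The means were 7.30 ± 0.70 (SD, n = 5) and 8.53 ± 0.65 (SD, n = 5). The difference of 1.22 had an SE of 0.37, an unadjusted p of 0.00697 and an adjusted p of 0.552 (limma). An exact permutation test over the 252 assignments of the arrays gave a two-sided p of 0.0159, where the smallest possible is 0.00794. It was run on 2 genes in 8 pairs, 16 tests, without adjustment. At least as large a difference in either direction was found for 0.613% of all probe sets.

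In CD8+ with W35 the low arrays held IL10 at 7.03, 7.40, 7.59, 7.69 and 7.92, and the high arrays at 7.79, 8.46, 8.76, 9.20 and 9.28. The low arrays lay close together, and again 4 of the 5 high arrays were above all of them. The difference was 1.17 (SE 0.28), with an unadjusted p of 0.00146, an adjusted p of 1 (limma) and an exact permutation p of 0.0159. By unadjusted p, IL10 was the probe set of rank 14 among the 23999. This pair shared 5 pigs with CD4+ with W35, and all 5 carried the same label in both.

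In IL-10 with W35, the pair that joins the cytokine itself with weight, the low arrays held IL10 at 8.04, 8.85, 9.01, 9.07 and 9.58. The high arrays held it at 7.25, 7.58, 8.10, 8.22 and 8.29. Of the high arrays, 2 lay below every low array, and the other 3 lay above the lowest low array, at 8.04, and below the remaining 4. The difference was -1.02 (SE 0.29), with an unadjusted p of 0.00421, an adjusted p of 1 (limma) and an exact permutation p of 0.0317. The IL10 transcript was thus lower, not higher, in the pigs with a high self-product of IL-10 and weight, but not beyond the adjusted threshold.

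In CD4+ with IFN-alpha the low arrays held IL10 at 7.67, 9.07, 9.08, 9.52 and 9.54, and the high arrays at 7.68, 7.84, 7.89, 8.08 and 8.10. The high arrays were the narrowest group of IL10 values, with an SD of 0.17, and 4 of the low arrays were above all of them. The remaining low array, at 7.67, was below every high array. The difference was -1.06 (SE 0.31), with an unadjusted p of 0.00567, an adjusted p of 0.971 (limma) and an exact permutation p of 0.0476. This pair shared 5 pigs with IL-10 with W35, all with the same label in both.

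The remaining 4 pairs had wider or more interleaved groups. In CD4+ with IL-10 the low arrays held IL10 at 7.36, 7.52, 7.78, 8.28 and 9.19 and the high arrays at 7.92, 8.33, 8.43, 9.33 and 9.71, a difference of 0.72 (SE 0.41, adjusted p 0.749 by limma). Leaving out 1 array moved it to between 0.47 (without high array 4) and 1.01 (without low array 3), and 2 of the 10 such fits had an unadjusted p under 0.05. In CD8+ with IL-10 the low arrays held 8.24, 8.62, 9.41, 9.43 and 9.91 and the high arrays 7.63, 7.96, 7.99, 9.18 and 9.86, a difference of -0.60 (SE 0.45, adjusted p 1 by limma). Leaving out 1 array moved it to between -0.93 (without high array 1) and -0.38 (without high array 5), with 1 of 10 fits under an unadjusted p of 0.05. The high group of that pair was split, with 3 arrays below every low array and the other 2 within the low range.

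In CD8+ with IFN-alpha the low arrays held IL10 at 7.19, 7.73, 8.06, 8.08 and 9.71 and the high arrays at 7.90, 8.95, 9.20, 9.25 and 9.63. The difference was 0.83 (SE 0.44, adjusted p 1 by limma), and the highest low array was above every high array. Leaving out 1 array gave 0.59 to 1.22, with 2 of 10 fits under an unadjusted p of 0.05. In IFN-alpha with W35 the low arrays spread from 6.37 through 7.89, 8.36 and 9.07 to 9.43, around high arrays at 7.67, 7.83, 7.86, 9.05 and 9.17. The means differed there by 0.09 (SE 0.54), and the exact permutation p was 0.944.

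**Figure D1:**
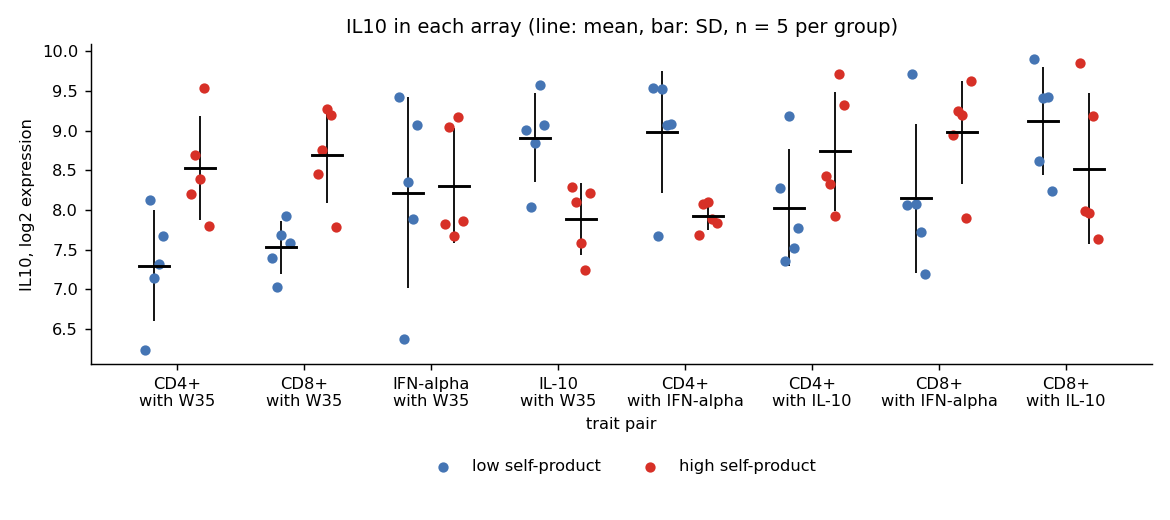
IL10 in every array, in log2 expression, by trait pair, with low self-product in blue and high in red; lines are means and bars SDs of 5 arrays. The groups overlap in each of the 8 pairs, and the high arrays of CD4+ with IFN-alpha lie closest together, between 7.68 and 8.10.

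In the 3 pairs that contain the IL-10 trait, the IL10 transcript differed by -1.02, 0.72 and -0.60. These pairs drew on 14 pigs, of which 8 were labelled low in one of them and high in another. The pig with the highest IL10 of all 29 was in 7 of the 8 pairs and was labelled high in 3 and low in 4. Without its array the difference was 0.97 in CD4+ with W35, 1.03 in CD8+ with W35, -0.85 in IL-10 with W35 and -0.92 in CD4+ with IFN-alpha, each with an unadjusted limma p under 0.05. In CD8+ with IL-10, where it was 1 of the 2 upper high arrays, the difference without it was -0.93 (SE 0.40, adjusted p 0.99 by limma).

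A joined comparison used 1 value per pig and left out the 8 pigs with both labels, so that 2 pigs labelled high faced 4 labelled low. On values normalized together over all columns, the low pigs had IL10 at 7.27, 7.80, 9.13 and 9.18 and the high pigs at 7.66 and 8.36. The high pigs lay between the low ones. The difference was -0.34 (SE 0.57, adjusted p 0.889 by limma), and the exact permutation p was 0.667, where 15 assignments allow no p below 0.0667. IL10RB was 6.36, 6.50, 7.18 and 7.47 in the low pigs and 6.71 and 6.98 in the high pigs, a difference of -0.04 (SE 0.34, adjusted p 0.984 by limma). The joined fit called 8 probe sets (0.0333%), and 0 of them were members. At an unadjusted p under 0.05 the share of all probe sets was 8.5%, and neither member was among them. Over all 29 pigs the EIF1AY transcript, used below as a covariate, was at most 3.35 in 18 and at least 7.22 in 11. It ran from 7.47 to 8.16 in the columns of the high pigs. In those of the low pigs it ran from 2.63 to 3.50. Its level and the label therefore cannot be told apart in the joined fit. In CD4+ with IFN-alpha the low arrays held EIF1AY at 2.73, 3.03, 3.23, 3.50 and 7.52. The high arrays held it at 7.47, 7.47, 8.00, 8.02 and 8.76. In IL-10 with W35 the low arrays held it at 2.77, 2.99, 3.34, 3.48 and 7.64. The high arrays there were at 2.98, 7.53, 8.16, 8.90 and 9.10. Level and label thus went largely together in these pairs. In CD4+ with W35 EIF1AY ran from 2.59 to 8.74 in the low and from 2.76 to 8.01 in the high arrays.

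IL10RB, the shared receptor chain, showed no difference between low and high groups that was larger than the spread between arrays. The differences were 0.37, -0.47, -0.18, 0.20, -0.00, -0.24, -0.46 and 0.32 in the order in which the pairs are listed above, with SEs from 0.39 to 0.50. The unadjusted limma p ran from 0.289 to 0.998. A p of this size does not show that the groups were equal.

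In IL-10 with W35 the low arrays held IL10RB at 6.08, 6.36, 6.44, 7.34 and 8.24 and the high arrays at 6.63, 6.80, 6.82, 7.34 and 7.89. The high arrays all lay inside the low range. In CD4+ with IL-10 the low arrays held 6.56, 6.90, 7.44, 7.62 and 8.05 and the high arrays 5.78, 6.91, 7.0, 7.53 and 8.17, so that the high group held both the lowest and the highest value. In CD8+ with IL-10 the low arrays held 5.68, 6.47, 7.51, 7.52 and 8.02 and the high arrays 6.17, 6.83, 7.48, 7.97 and 8.35.

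In the 5 pairs without the IL-10 trait the IL10RB arrays were interleaved in the same manner. CD4+ with W35 had low arrays at 6.03, 6.26, 7.23, 7.35 and 7.48 and high arrays at 6.15, 6.93, 7.26, 7.82 and 8.02. CD8+ with W35 had low arrays at 5.88, 7.20, 7.27, 7.74 and 7.89 and high arrays at 5.95, 6.05, 6.51, 7.19 and 7.90. In that pair 4 high arrays lay below all but the lowest low array, and the difference of -0.47 (SE 0.44) was the farthest from 0 among the 8.

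IFN-alpha with W35 had IL10RB between 6.28 and 8.18 in the low arrays and between 6.12 and 8.10 in the high arrays. CD4+ with IFN-alpha had it between 5.56 and 8.14 and between 6.58 and 7.96, with a mean of 7.05 in both groups. CD8+ with IFN-alpha had it between 6.19 and 8.13 and between 5.52 and 7.31, with 2 high arrays below every low array.

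**Figure D2:**
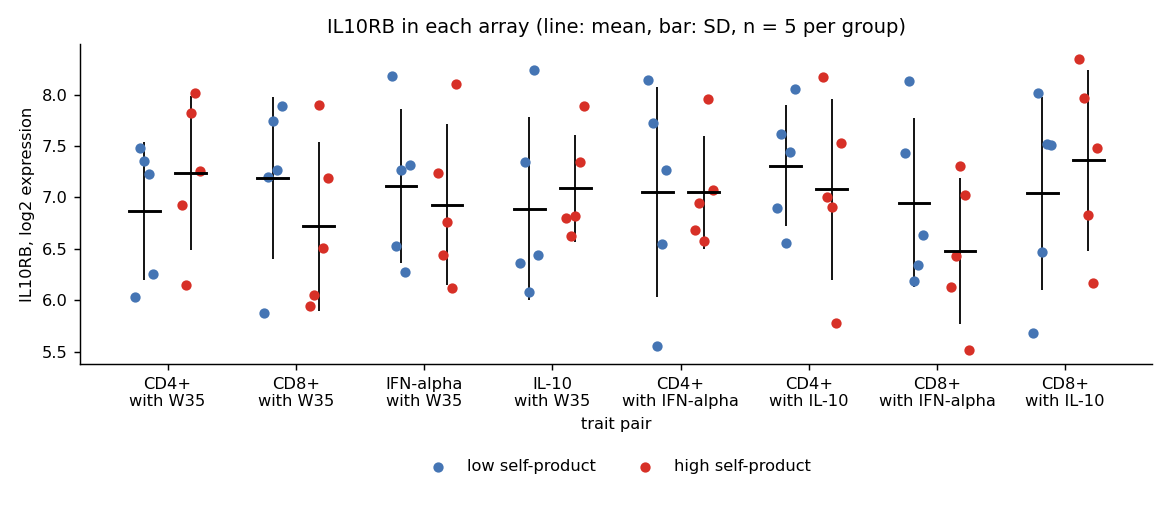
IL10RB in every array, in log2 expression, by trait pair, with low self-product in blue and high in red; lines are means and bars SDs of 5 arrays. Low and high arrays interleave in all 8 pairs, and the differences of the means run from -0.47 to 0.37.

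The values of the mean of cytotoxic and NK cell genes stand beside IL10 here. This mean differed by 0.96 in CD4+ with W35, 0.80 in CD8+ with W35, -0.69 in IL-10 with W35 and -0.43 in CD4+ with IFN-alpha. It differed by more than the last of these in 2 other pairs, 0.67 in CD8+ with IFN-alpha and -0.48 in CD8+ with IL-10. The list held GNLY (granulysin), GZMH (a granzyme) and PRF1 (perforin), which are proteins of cytotoxic granules, KLRK1, an activating receptor, and CCL5, a chemokine of T and NK cells. In CD4+ with W35 the mean of the 5 genes was 9.30 ± 0.25 (SD, n = 5) in the low and 10.26 ± 0.28 (SD, n = 5) in the high arrays, and the groups did not overlap. In CD8+ with W35 it was 9.26 ± 0.26 and 10.06 ± 0.42, with the low arrays between 8.91 and 9.56 and the high arrays between 9.35 and 10.48. In IL-10 with W35 it was 10.51 ± 0.08 and 9.82 ± 0.58, with the low arrays between 10.44 and 10.64 and the high arrays between 9.18 and 10.46. In CD4+ with IFN-alpha it was 10.32 ± 0.86 and 9.89 ± 0.66, and in CD8+ with IFN-alpha 10.04 ± 0.56 and 10.71 ± 0.45. Of the 5 genes, 0 had an unadjusted limma p under 0.05 in CD4+ with IFN-alpha. The mean was 10.14 and 9.94 in IFN-alpha with W35, 9.93 and 10.08 in CD4+ with IL-10, and 10.47 and 9.99 in CD8+ with IL-10. Its difference had the sign of IL10 in 7 of the 8 pairs. So had that of the regulatory T cell mean, but its differences were small, between -0.08 and 0.21. They were 0.01 in CD8+ with W35 and -0.01 in CD4+ with IFN-alpha. The count was 5 for neutrophil, 3 for B cell, 2 for erythroid, and 1 each for T cell, monocyte and platelet means.

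Of the 5 genes, CCL5 had the smallest p in CD4+ with W35, where it differed by 1.33 (SE 0.17, adjusted p 0.159 by limma). GZMH differed there by 1.32 (SE 0.25), GNLY by 1.02 (SE 0.26), KLRK1 by 0.90 (SE 0.27) and PRF1 by 0.24 (SE 0.22). In IL-10 with W35, CCL5 differed by -1.03 (SE 0.35), GZMH by -1.01 (SE 0.39), GNLY by -0.74 (SE 0.28), KLRK1 by -0.69 (SE 0.32) and PRF1 by 0.03 (SE 0.30), all with an adjusted p of 1 (limma). PRF1 was thus not lower in the high group there, nor in CD4+ with IFN-alpha, where it differed by 0.10 (SE 0.22). None of the list's genes passed the adjusted threshold in any pair.

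With the mean of these 5 genes as a covariate, an alternative added after the data were seen, the IL10 difference was 0.18 (SE 0.81) in CD4+ with W35 and -0.52 (SE 0.34) in IL-10 with W35. It was 1.56 (SE 0.45) in CD8+ with W35 and -0.91 (SE 0.30) in CD4+ with IFN-alpha. In CD8+ with IFN-alpha it was 0.12 (SE 0.43), against 0.83 without the covariate, and in CD8+ with IL-10 -0.28 (SE 0.41), against -0.60. In CD4+ with W35 the covariate itself separated the groups, with the low arrays up to 9.60 and the high arrays from 9.98. In IL-10 with W35 it nearly did, with the low arrays from 10.44 and the high arrays up to 10.46. Beyond these fits, the part of cytotoxic cells in the IL10 differences was not tested.

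Erythroid genes were lower in the high group of CD4+ with W35, by more than the cytotoxic genes were higher. Their mean was 10.38 ± 1.26 (SD, n = 5) in the low and 8.92 ± 1.19 (SD, n = 5) in the high arrays, from 8.46 to 11.42 and from 7.26 to 10.29, so the groups overlapped. All 4 genes had a lower mean in the high group, and none passed the adjusted threshold: FECH, the enzyme that puts iron into haem, differed by -1.97 (SE 0.51, adjusted p 0.552 by limma), ALAS2, the first enzyme of haem synthesis in red cells, by -1.66 (SE 0.82), AHSP by -1.64 (SE 1.17) and HBB by -0.57 (SE 0.39). With the erythroid mean as a covariate the IL10 difference in this pair was 0.87 (SE 0.42), with an unadjusted limma p of 0.0672, no longer under 0.05. All 5 monocyte genes were lower in the high group of CD4+ with W35 too. With the monocyte mean as a covariate the IL10 difference there was larger, at 1.68 (SE 0.33, adjusted p 0.516 by limma). In CD8+ with W35 the erythroid mean was 9.69 ± 1.01 and 8.96 ± 1.33, and IL10 with the erythroid covariate differed by 1.07 (SE 0.29).

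**Figure D3:**
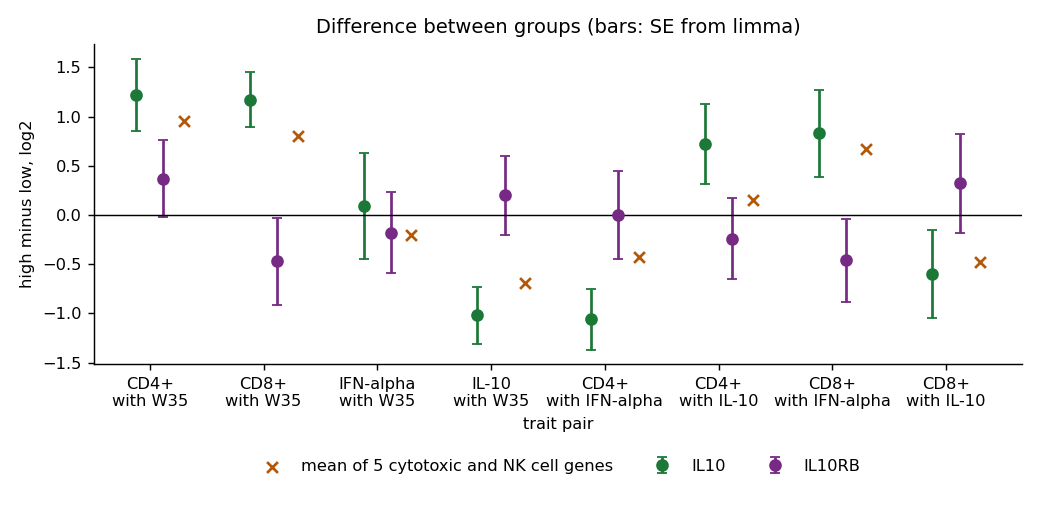
High minus low differences in log2 units, by trait pair, for IL10 (green) and IL10RB (purple) with SE bars from limma, and for the mean of 5 cytotoxic and NK cell genes (crosses, no error shown). IL10 runs from -1.06 to 1.22 and IL10RB from -0.47 to 0.37.

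The 2 classes of hybridisation controls occurred in both groups of most pairs. Within the higher class IL10 differed by 0.77 in CD4+ with W35 (3 low and 4 high arrays), by 1.09 in CD8+ with W35 (2 and 3), by -1.0 in IL-10 with W35 (4 and 5) and by -1.45 in CD4+ with IFN-alpha (3 and 4). Within the lower class the values were 2.01 (2 low and 1 high), 1.17 (3 and 2) and -0.49 (2 and 1), and IL-10 with W35 had 1 array of that class, a low one. The direction was the same in each class that had both groups in these 4 pairs. In IFN-alpha with W35 it was not, at -0.81 in the higher and 0.97 in the lower class. With the class as a block the 4 differences were 1.12, 1.13, -1.0 and -1.18.

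Both transcripts varied widely from pig to pig. On the values normalized together, 1 per pig, IL10 ran from 6.29 to 9.64 over 29 pigs, a 10.2-fold range, with a median of 8.14 and an SD of 0.827. IL10RB ran from 5.57 to 8.29, a 6.59-fold range, with a median of 6.98 and an SD of 0.730. The median SD of all probe sets was 0.343, and the SD of IL10 was at the 96.8th percentile and that of IL10RB at the 94.4th. Among probe sets of similar mean level the percentiles were 94.5 for IL10 and 89.9 for IL10RB. The deposited values of 1 pig in different pairs differed by at most 0.653 for IL10 and 0.507 for IL10RB, so the range between pigs was several times the range that separate normalization gave.

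The lowest IL10, 6.29, lay 0.977 below the next pig, and this was the widest gap between neighbouring pigs. That pig was low in both of its pairs, CD4+ with W35 and IFN-alpha with W35. IL10 was 8.35 ± 0.72 (SD, n = 18) in the higher and 8.21 ± 1.02 (SD, n = 11) in the lower control class, and IL10RB was 6.86 ± 0.69 and 7.11 ± 0.81.

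No relation between the ligand and the receptor chain was detected. Over 29 pigs Pearson's r between IL10 and IL10RB was -0.05 (permutation p 0.805, adjusted p 0.842) and Spearman's rho was -0.06 (permutation p 0.773, adjusted p 0.773). Without the 2 pigs farthest from the median r was -0.06, and within the control classes it was 0.02 and -0.09. The pig with the highest IL10 also had the highest IL10RB, 8.29, whereas the pig with the next highest IL10, 9.59, had the lowest IL10RB, 5.57.

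**Figure D4:**
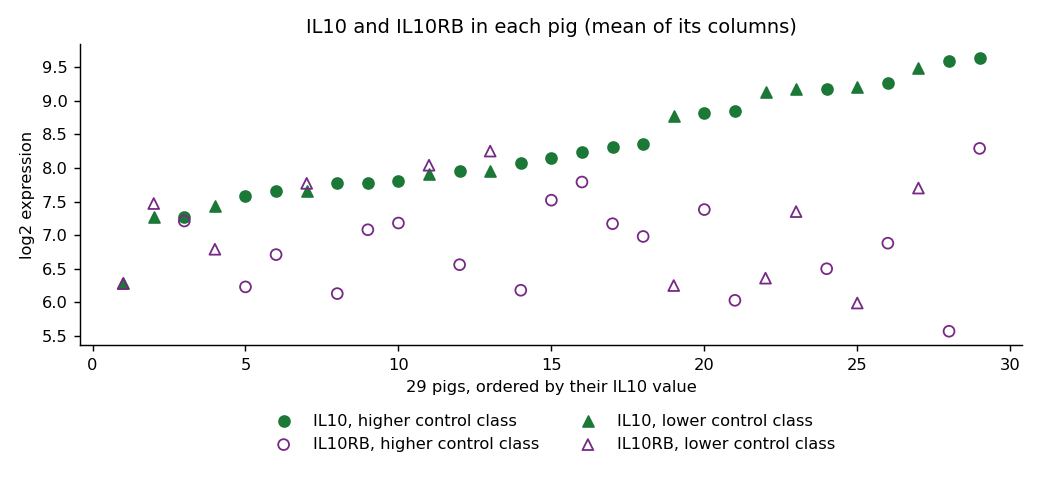
IL10 (filled) and IL10RB (open) in each of 29 pigs, in log2 expression normalized over all columns, ordered by IL10, with circles for the higher and triangles for the lower class of hybridisation controls. IL10 rises along the order by construction from 6.29 to 9.64, and IL10RB shows no trend along it (r -0.05); the scales of different probe sets are not comparable.

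In all, 23 relations were computed over the 29 pigs, between the 2 genes and with 8 marker means, EIF1AY and 2 control differences. Of these, 5 had an unadjusted permutation p under 0.05 and 0 an adjusted p under 0.05. The closest to the threshold was that of IL10 with the cytotoxic and NK cell mean, with r 0.55 (permutation p 0.00224, adjusted p 0.0515) and rho 0.54 (permutation p 0.00298, adjusted p 0.0685). It was 0.44 without the 2 farthest pigs, and 0.54 and 0.59 within the higher and lower control classes. The adjusted permutation p depended on the setting. It was 0.0177 on values centred on the array median and 0.0416 on the first column of each pig. It was 0.0143 on the deposited values, which keep the separate scales of the pairs. In the other 4 of 7 alternatives it was above 0.05, up to 0.428. These were rho, leaving out the 2 farthest pigs, and each control class. IL10 with CD79B, the only gene of the B cell list with a probe set under its symbol, gave r -0.44 (permutation p 0.0162, adjusted p 0.124).

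IL10 gave r -0.07 with the monocyte mean, 0.27 with the regulatory T cell mean and -0.11 with the T cell mean, with adjusted permutation p of 0.835, 0.297 and 0.735. The last of these was 0.26 without the 2 farthest pigs. For IL10RB the relation with the erythroid mean had r -0.50 (permutation p 0.0057, adjusted p 0.0655) and rho -0.47 (permutation p 0.0109, adjusted p 0.125), and r was -0.37 without the 2 farthest pigs. IL10RB gave r -0.42 with the T cell mean, -0.40 with the cytotoxic and NK cell mean and 0.36 with the monocyte mean, with adjusted permutation p of 0.131, 0.142 and 0.197.

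Among 4938 genes whose mean was not below that of the median probe set, those most like IL10 over the 29 pigs were IDH2, a mitochondrial isocitrate dehydrogenase, with r 0.73, and RRM2, a subunit of ribonucleotide reductase made in dividing cells, also with 0.73. COMMD4 (0.72), FSCN1, an actin-bundling protein (0.69), and MAPK3, the kinase ERK1 (0.66), followed. The most opposed were LOC100625971 (-0.70), ZNF329 (-0.66) and PLA2G12A, a secreted phospholipase (-0.66). The central 95% of genes lay between -0.48 and 0.49. RRM2 varied about as much as IL10, with an SD of 0.74, while IDH2 and COMMD4 varied little, with SDs of 0.24 and 0.21. RRM2 differed by 1.42 (SE 0.27, adjusted p 1 by limma) in CD8+ with W35 and by -1.08 (SE 0.28, adjusted p 1) in IL-10 with W35.

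The genes most like IL10RB were LOC100624648 (r 0.83), CD300C, a receptor of the CD300 family on myeloid cells (0.80), LAMP1, a lysosomal membrane protein (0.70), C7H6orf89 (0.69) and LRPAP1, a chaperone of lipoprotein receptors (0.68). The most opposed were C13H21orf59 (-0.75), CLPB (-0.74) and NFYC, a subunit of the factor NF-Y (-0.72), and the central 95% lay between -0.54 and 0.49. For CD300C r was 0.79 in the higher and 0.81 in the lower control class. These values come from the same 29 pigs and arrays and are given as a description.

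C13H21orf59 lies near IL10RB in the gene order of the RefSeq pig assembly Sscrofa11.1, so the 25 coding genes on either side of each member were examined, a step chosen after the data were seen. Of the 19 neighbours of IL10RB with a probe set, 4 had an r of at least 0.5 in size (21.1%), against 5.35% of 6764 genes. That count includes C13H21orf59, which prompted the step; without it, 3 of 18 neighbours reached that size (16.7%). IFNAR1, the next gene and a chain of the type I interferon receptor, had r 0.55, and IFNAR2, the gene on the other side and the other chain of that receptor, had 0.41. C13H21orf59, 9 genes before IL10RB, had -0.75. CRYZL1, 8 genes after it, had -0.69, and DONSON, a replication factor, had -0.53. Without the 2 pigs farthest from the neighbour's median, r was -0.32 for DONSON. It was then 0.63 for IFNAR1, -0.78 for CRYZL1 and -0.78 for C13H21orf59. The signs were mixed. Of the 16 neighbours of IL10 with a probe set, 1 reached 0.5 in size (6.25%, against 3.77% of all genes): CR1, a complement receptor, with -0.57. For CR1 r was -0.49 without the 2 farthest pigs. No neighbouring ligand of the IL-10 family (IL19, IL20, IL24) had a probe set under its symbol.

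**Figure D5:**
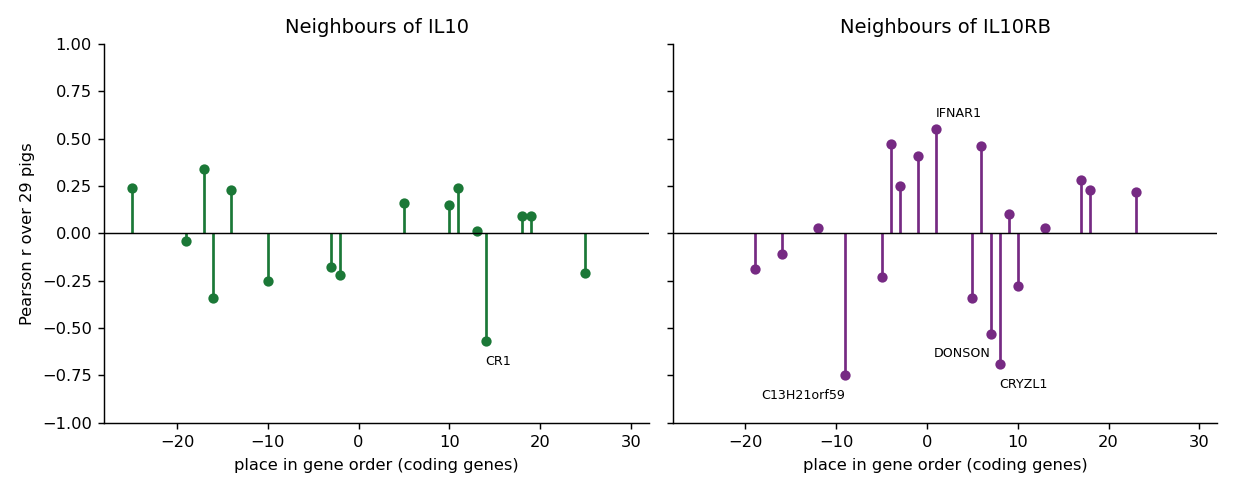
Pearson's r over 29 pigs between each member and the genes near it, by place in the order of coding genes (0 is the member), for IL10 at left and IL10RB at right; genes without a probe set are not drawn. Labelled genes have an r of at least 0.5 in size: 1 near IL10 and 4 near IL10RB, from -0.75 for C13H21orf59 to 0.55 for IFNAR1.

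Of the lists of pathway genes, 36 genes had a probe set, and 0 of these passed the adjusted threshold in any pair or in the joined fit. Of 7 other ligands of the IL-10 family, 0 had a probe set under their symbol. Of the receptor chains of the same class, 3 of 9 had a probe set. In IL-10 with W35, IFNAR1 differed by 0.64 (SE 0.30), IFNAR2 by 0.50 (SE 0.28) and IFNGR1, a chain of the interferon gamma receptor, by 0.17 (SE 0.29). Their median was 0.50, against -0.00 for all probe sets. In CD4+ with IL-10 the median was -0.51, against 0.05, and IFNAR2 differed by -0.57 (SE 0.25, adjusted p 0.749 by limma). In CD8+ with IL-10 the median was 0.50, against -0.02.

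Of the signal transducers, JAK1, TYK2 and STAT3 had a probe set. JAK1 differed by -0.03, -0.07 and -0.19 in the 3 pairs with the IL-10 trait, with SEs of 0.16, 0.16 and 0.18. TYK2 differed by 0.32 (SE 0.24), -0.37 (SE 0.20) and 0.43 (SE 0.23) in the same pairs, and by 0.47 (SE 0.36) in the joined fit. STAT3 differed by 0.32 (SE 0.20), 0.19 (SE 0.24) and 0.19 (SE 0.25) in these pairs, and by 0.66 (SE 0.20, adjusted p 0.502 by limma) in the joined fit.

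Of 13 genes that IL-10 is known to raise in human or mouse macrophages, 8 had a probe set, among them SOCS3, a feedback inhibitor of cytokine signalling, and CD163, the haemoglobin scavenger receptor. In the 3 IL-10 pairs 5, 2 and 7 of the 8 were higher in the high group, with medians of 0.06, -0.20 and 0.21. HMOX1, which degrades haem, differed by -0.85 (SE 0.35, adjusted p 0.749 by limma) in CD4+ with IL-10.

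Of 18 symbols for genes that IL-10 restrains, 16 had a probe set (IL8 and CXCL8 name the same gene), and 3, 5 and 12 of the 16 were higher in the high group of the 3 IL-10 pairs, with medians of -0.15, -0.22 and 0.21. IL12A, a subunit of interleukin 12, differed by -0.31 (SE 0.12, adjusted p 1 by limma) in IL-10 with W35, and IL1B, the inflammatory cytokine, by 1.03 (SE 0.46, adjusted p 1 by limma) in CD8+ with IL-10. Of 10 factors known to act on the IL10 gene in human or mouse cells, 6 had a probe set. BHLHE40, a repressor of it in mouse T cells, differed by -1.12 (SE 0.41, adjusted p 1 by limma) in IL-10 with W35.

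Monocyte markers had differences of their own in the 2 pairs that join IL-10 with a T cell trait. KLF4, a factor of monocyte differentiation, differed by -1.56 (SE 0.26, adjusted p 0.749 by limma) in CD4+ with IL-10 and by 1.02 (SE 0.40, adjusted p 1 by limma) in CD8+ with IL-10. CD14, the endotoxin co-receptor, differed by 2.15 (SE 0.56, adjusted p 1 by limma) in CD8+ with IL-10, and AIF1 by -0.87 (SE 0.26, adjusted p 0.749 by limma) in CD4+ with IL-10. All 5 monocyte genes were lower in the high group of the first pair and higher in that of the second. IL10 differed by 0.72 and -0.60 in these pairs, and with the monocyte mean as a covariate by 0.02 (SE 0.45) and -0.88 (SE 0.59). The 2 pairs share 7 pigs, 5 of them with opposite labels, so their differences are not independent.

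In the 4 pigs labelled only low and the 2 labelled only high, some neutrophil genes had differences of their own. They were S100A8 1.78 (SE 0.57), S100A12 1.30 (SE 0.50) and S100A9 0.85 (SE 0.34), which encode calcium-binding proteins of neutrophils and monocytes. Of the rest of that list, LTF differed by 1.03 (SE 0.79) and MMP9 the other way, by -0.11 (SE 0.28). IL2RA, the alpha chain of the interleukin 2 receptor found on regulatory and activated T cells, differed by 0.42 (SE 0.17) in CD4+ with IL-10. In the joined fit CD3E differed by 0.76 (SE 0.22), CD14 by 1.52 (SE 0.64), AIF1 by -0.68 (SE 0.27), ITGA2B, a platelet integrin, by 1.23 (SE 0.46), and the erythroid genes HBB and ALAS2 by -0.63 (SE 0.19) and 1.41 (SE 0.56). Of the other platelet genes, PPBP differed by -0.32 (SE 0.82), ITGB3 by 0.73 (SE 0.56) and GP9 by 0.67 (SE 0.37). All had an adjusted p above 0.05 (limma), and with 2 pigs in the high group their values rest on few animals.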

How the data were processed

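The deposited table holds log2 expression values per probe set, which the authors made with RMA and analysed with limma, per the submitters' processing notes; versions, settings and the genome build are not given in the sources used here. The 8 trait pairs are on separate scales: their means ran from 5.66 to 6.08 and array medians from 5.18 to 5.81. Of 24123 probe sets, 124 controls were set aside. The platform annotation, which can be old, gave 10069 probe sets 1 symbol, 198 several and 13732 none. An array gives no count, so no depth can be given, and precision depends on how many arrays there are. All 80 columns were mapped through their titles. Columns of 1 pig correlated at 0.9936 or more and columns of different pigs at 0.9885 or less, and the sheet of group labels held 29 array numbers as well.

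Each pair was fitted with limma 3.58.1 (lmFit with 1 group term, eBayes) in R 4.3.3, with two-sided tests and Benjamini-Hochberg adjustment over 23999 probe sets. Levels across pigs used quantile normalization over all columns and the mean of a pig's columns, because of those scales. Exact permutation tests were run in R. Permutation tests with 100000 resamples used Python 3.11.15 with numpy 2.4.6, and scipy 1.17.1 gave the ranks for Spearman's rho. The p-values measure the spread between these pigs. The replicate numbers are not known to pair the pigs. After the mean of each group was taken off every probe set, same-numbered low and high arrays correlated between -0.544 and 0.365. No pair had all 5 of these correlations over 0.1, though CD4+ with W35 had 4.

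The members, gene lists and rules were chosen with earlier results of these data known. All member probe sets are named; so are the 5 most and 3 least like genes over pigs, and list genes with an unadjusted p under 0.05 in a pair with IL-10 or in the joined fit, at most 4 per list. Further genes named beside IL10, and the neighbours, were chosen after their values were seen. In a simulation that took each pair's spread, over 23999 probe sets, the fit recovered 38 to 69 of 100 probe sets changed 2-fold and 85 to 96 of 100 changed 4-fold, with 4 to 13 false calls. The changed probe sets were drawn at random, whereas the SD over pigs was at the 96.8th percentile for IL10 and the 94.4th for IL10RB. These shares are therefore not the recovery of a change in a member. Alternatives were another normalization, a filter on dim probe sets, eBayes with trend and robust settings, control class and replicate blocks, covariates (EIF1AY, erythroid and monocyte means), and leaving out each array; covariates for the difference of 3′ and 5′ actin controls and for the cytotoxic and NK cell mean were added after the data were seen. No sequence of the probe sets was used here.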

Additional observations from a re-analysis of the deposited data

Results flagged for a closer look

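IL10 in the low group of CD4+ with IFN-alpha held 1 array far from the others, at 7.67 where the nearest was 9.07 and the highest 9.54. The gap took 0.751 of the range of the 5 arrays, above Dixon's 95% critical value of 0.71. Without that array the difference was -1.39, with an adjusted p of 0.127 (limma). Among 34 groups tested for such an array 1 met the rule, and chance gives about 1 in 20.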

How the results depend on the processing

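The sign of the IL10 difference did not change in CD4+ with W35, CD8+ with W35, IL-10 with W35, CD4+ with IFN-alpha, CD4+ with IL-10, CD8+ with IFN-alpha and CD8+ with IL-10 under the alternatives run, but its size did. It was 0.02 in CD4+ with IL-10 with the monocyte covariate, and with the cytotoxic covariate 0.12 in CD8+ with IFN-alpha, 0.18 in CD4+ with W35, -0.28 in CD8+ with IL-10 and -0.52 in IL-10 with W35. The cytotoxic covariate itself separated the groups of CD4+ with W35 and nearly separated those of IL-10 with W35. The EIF1AY covariate gave -1.64 in CD4+ with IFN-alpha and -0.38 in CD8+ with IL-10. The adjusted p stayed above 0.05 under the limma alternatives. The exact permutation test, which is not adjusted over probe sets, put the differences of 1.22, 1.17, -1.02 and -1.06 below 0.05. Where results changed, the cause was not tested. For IL10, leaving out 1 array gave -0.37 to 0.39 in IFN-alpha with W35 and -0.70 to 0.01 in the joined fit, where the cytotoxic covariate gave 0.33.

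IL10RB changed sign often. With the monocyte covariate it was 0.58 in IFN-alpha with W35, 0.06 in CD4+ with IFN-alpha, 0.33 in CD4+ with IL-10, -0.53 in CD8+ with IL-10 and 0.00601 in the joined fit. With the erythroid covariate it was -0.22 in CD4+ with W35, 0.40 in CD4+ with IFN-alpha and 0.29 in the joined fit. With the actin covariate it was 0.26 in CD4+ with IFN-alpha and 0.27 in the joined fit, and with the control class block it was 0.18 in CD4+ with IFN-alpha. EIF1AY as a covariate gave 3.43 in the joined fit. EIF1AY separated the high from the low pigs there, so this value cannot be read as a difference of IL10RB. Leaving out 1 array gave -0.48 to 0.08 in IFN-alpha with W35, -0.00133 to 0.54 in IL-10 with W35, -0.37 to 0.27 in CD4+ with IFN-alpha, -0.51 to 0.09 in CD4+ with IL-10, -0.02 to 0.62 in CD8+ with IL-10 and -0.21 to 0.16 in the joined fit.

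The number of probe sets called, 0 in each pair, became 2 in CD8+ with W35 with the cytotoxic covariate, 69 in IFN-alpha with W35 with the monocyte covariate, 25 in CD4+ with IL-10 with the control class block, and in CD4+ with IFN-alpha 4, 7 and 4 with the EIF1AY, erythroid and monocyte covariates. In the joined fit the EIF1AY covariate left 0 of 8. Leaving out 1 array gave 0 to 6 in CD4+ with W35 (6 without low array 2, 2 without high array 4), 0 to 1 in IFN-alpha with W35 (low array 3), 0 to 2 in IL-10 with W35 (high array 5), 0 to 7 in CD4+ with IFN-alpha (low array 1) and 5 to 8 in the joined fit (5 without high pig 1). The number at an unadjusted p under 0.05 also moved, from 2143 to between 774 and 2744 in CD4+ with W35 and from 1483 to between 735 and 4596 in CD4+ with IL-10.

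With the number of the array as a replicate block, where the numbers are not known to pair the pigs, 0 probe sets were called in each pair. IL10 then differed by 1.22 in CD4+ with W35 (adjusted p 0.36 by limma) and by -0.60 in CD8+ with IL-10 (adjusted p 1 by limma). The block changed no call.

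Over pigs, r of IL10RB with the platelet mean was 0.04 on centred and 0.04 on deposited values, 0.02 without the 2 farthest pigs and 0.01 in the lower control class. IL10 with the T cell mean gave 0.07 as rho, 0.26 without the 2 farthest pigs and 0.02 in the higher class. In the higher class IL10 gave 0.02 with IL10RB and -0.00726 with the bioB difference. In the lower class IL10 gave 0.04 with platelets, -0.29 with the bioB difference and -0.51 with the actin difference, and IL10RB gave -0.05 with CD79B, -0.08 with EIF1AY and 0.44 with the bioB difference.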
